A study of Mus musculus with 4 samples.

Results

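The Ly6 family members described here are Ly6a, Ly6c1, Ly6c2, Ly6e and Ly6d, chosen by these symbols in the gene table of the deposited count matrices. They are 5 of 27998 genes. Each symbol stood for 1 gene entry, and each gene had at least 1 unique molecular identifier (UMI, the tag of 1 captured RNA molecule).

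Ly6 proteins are small proteins with a finger-shaped fold, and most of them are tethered to the outer cell surface by a lipid anchor. Many serve as surface markers of mouse blood cells: Ly6a encodes Sca-1, known from blood stem cells and activated T cells, while Ly6c1 and Ly6c2 encode closely related Ly6C proteins, known from memory T cells and inflammatory monocytes. Several of the genes respond to interferons.

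Droplet-based 3′ single-cell RNA sequencing was done on T cells enriched from the blood of young adult C57BL/6 mice that carried MC38 colon tumours under the skin. All samples were taken on day 18 after tumour injection. The untreated group had the tumour alone, and PDL1 mice received a blocking antibody to PD-L1 on days 10, 13 and 17. OX40 mice received an agonistic antibody to OX40 on day 7 together with CpG, a DNA ligand of TLR9, and PDOX mice received both regimens. Each group had 1 library, so mouse, library and treatment cannot be told apart, and no test was made between treatments.

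The deposited matrices held 862 cells and 2392650 UMIs for untreated, 1451 cells and 4969885 UMIs for PDL1, 1583 cells and 4931178 UMIs for OX40, and 1538 cells and 4121932 UMIs for PDOX. Cells with fewer than 200 genes were left out, as were 13 mitochondrial, 102 ribosomal and 10 hemoglobin genes. That kept 784, 1446, 1559 and 1510 cells in the same order, with medians of 1434.5, 1618, 1569 and 1494.5 UMIs per cell. Hemoglobin genes held 7.99% of UMIs in untreated, 0.344% in PDL1, 1.51% in OX40 and 1.70% in PDOX. A level below is the gene's UMIs per 10000 UMIs of the genes kept. Values in series of 4 follow the order untreated, PDL1, OX40 and PDOX unless named otherwise. Intervals are 95% intervals (exact Poisson for levels, Clopper-Pearson for shares, conditional binomial for ratios) and cover counting error only. In all, 16 cell barcodes occurred in more than 1 library.

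Cells were assigned by marker genes. T cells had a UMI of Cd3d, Cd3e or Cd3g, and were CD8 T cells (2058 cells) or CD4 T cells (852 cells) by the coreceptor genes seen. A further 1547 T cells showed no coreceptor and 228 showed both. The other types compared were B cells (127), NK cells (62) and monocytes (90). Doublets were treated by leaving out 211 cells with markers of more than 1 type, and no doublet caller was used. T cells counted as naive when they held at least 2 more UMIs of 8 naive genes together than of 13 effector genes, and as effector at 2 or more the other way. Exactly at that margin were 148 CD8 and 42 CD4 T cells, and 242 and 51 fell between the states. There were 224, 421, 341 and 120 naive CD8 T cells and 43, 127, 252 and 288 effector CD8 T cells. There were 90, 161, 154 and 101 naive CD4 T cells and 7, 20, 89 and 179 effector CD4 T cells. The effector share of CD8 T cells was 13.8%, 20.2%, 37.6% and 64.4%. The summed B list stood at 135, 149, 83.4 and 147 UMIs per 10000 in B cells. The NK list stood at 95, 90.8, 71.6 and 71.6 in NK cells, and the monocyte list at 475, 408, 424 and 389 in monocytes. These lists define the same cell types, so high sums there were settled beforehand and are no check of the sorting. Profiles with fewer than 10 cells entered none of the fits across genes, which left out untreated effector CD4 T cells, B cells in OX40 (7 cells) and NK cells in PDL1 (5 cells).

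A small group of droplets stood apart and held much of the Ly6a signal. With 5 or more UMIs of Krt6b, Krt7, Krt13, Krt15, Krt19 and Krt23 together, there were 24 such keratin-rich droplets (3 in untreated, 12 in PDL1, 1 in OX40, 8 in PDOX), which is 0.453% of cells, with a median of 7714.5 UMIs. They held 3459 Ly6a UMIs, 42.8% of all Ly6a UMIs, at a level of 159 against 5.18 in all other cells. The same droplets held 4.98% of Ly6e, 0.713% of Ly6c1 and 0.0429% of Ly6c2 UMIs, and no Ly6d UMI. Other genes high in them were Gsto1 (961 against 1.23 UMIs per 10000), Fth1 (565 against 25) and Asprv1 (128 against 0.159). Among the types compared they fell in the effector gates alone, 2 in effector CD8 T cells and 2 in effector CD4 T cells. The effector genes include S100a6, which these droplets held at 184 against 12.2 UMIs per 10000, so the state they were given is no finding. In effector CD8 T cells they gave 48 of 246 Ly6a UMIs in PDL1 and 238 of 633 in PDOX. In effector CD4 T cells they gave 164 of 186 Ly6a UMIs in untreated and 98 of 131 in PDL1. The 6 keratin genes summed to 0, 0.716, 0.0194 and 5.16 UMIs per 10000 in effector CD8 T cells and to 30.4, 9.02, 0 and 0.0558 in effector CD4 T cells. Tests of Ly6a with these droplets in a compared group, and of Ly6e between effector and other T cells, are given with and without them. The naive groups held none of them, but the test between naive lineages comes from a fit that includes the effector profiles. The rule that picked them out was chosen after seeing the data.

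All 5 genes lie on chromosome 15 within 350011 bases, from 74762056 to 75112066 on GRCm38.p6 (RefSeq coordinates). Ly6d (ENSMUSG00000034634) is at chr15:74762056-74763567 and Ly6e (ENSMUSG00000022587) at chr15:74955025-74959904. Ly6a (ENSMUSG00000075602) follows at chr15:74994877-74998031, then Ly6c1 (ENSMUSG00000079018) at chr15:75044018-75048920 and Ly6c2 (ENSMUSG00000022584) at chr15:75108161-75112066. To show how alike the read ends of the transcripts are, their last 500 bases were compared in windows of 98 bases with all mouse transcripts in GENCODE. Ly6a shared 194 of 1045 windows (18.6%) with Gm28068 or Ly6c1, and Ly6c1 shared 202 of 1638 (12.3%) with Ly6a or Ly6c2. Ly6c2 shared 27 of 403 (6.70%) with Ly6c1, while Ly6e and Ly6d shared none with any gene.

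Ly6a, the gene of Sca-1, was found in naive CD8 T cells at 0.701, 2.95, 1.85 and 3.34 UMIs per 10000. In effector CD8 T cells its level was 2.60, 6.78, 2.82 and 11.0. Effector cells were above naive cells of the same library in 4 of 4 libraries, and untreated was lowest in both states. Of the 5 members, 3 had enough counts for the test of effector against naive CD8 T cells (Ly6c1 and Ly6d did not) and 2 passed it, where 16.4% of the 5557 genes tested passed. Ly6a was higher in effector CD8 T cells by 1.31 on the log2 scale (SE 0.136, adjusted p = 6.95e-11). Without the keratin-rich droplets the change was 1.0 (adjusted p = 3.53e-09), and the effector level was 5.51 in PDL1 and 7.01 in PDOX. The mean effector level over libraries was then 4.48 ± 2.14 (SD, n = 4) in place of 5.79 ± 3.94.

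In naive CD4 T cells Ly6a stood at 2.18, 6.29, 5.20 and 7.30 UMIs per 10000. In effector CD4 T cells it stood at 28.1 in PDL1, 10.3 in OX40 and 14.4 in PDOX, and at 97.6 in the 7 untreated cells. Without 1 keratin-rich droplet in each, PDL1 was at 8.36 and untreated at 23.5 (6 cells), so that PDL1 was highest of the 3 larger libraries with its droplet and lowest without it. Each effector value was above the naive value of its library either way. In the test over 3 libraries, 3 of 5 members had enough counts (Ly6c2 and Ly6d did not) and 2 passed, against 15.1% of all 3660 genes. The libraries taken as replicates had different treatments. Residual degrees of freedom were 2 here and 3 in the CD8 test, so the p values lean on a spread shared over genes. Ly6a was higher in effector CD4 T cells by 1.41 (SE 0.174, adjusted p = 6.83e-08, higher in 3 of 3 libraries). Without the keratin-rich droplets the change was 0.87 (adjusted p = 5.65e-06), without the top 5% of cells by UMIs it was 0.94 (adjusted p = 8.39e-06), and the mean effector level over PDL1, OX40 and PDOX was 11.0 ± 3.11 in place of 17.6 ± 9.34.

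CD4 T cells held more Ly6a than CD8 T cells in each state. Among naive cells, 4 of 5 members could be tested between the lineages and 3 passed, against 2.46% of 5320 genes. Ly6a was 1.21 higher in naive CD4 T cells (SE 0.239, adjusted p = 0.00271, higher in 3 of 3 libraries). That call ended without the OX40 library (1.07, adjusted p = 0.171), without the library term (1.19, adjusted p = 0.183) and in DESeq2 (1.22, adjusted p = 0.117). Over 8 settings other than left-out libraries, the keratin-rich droplets left out among them, the value ran from 1.17 to 1.22. Among effector cells, 3 of the 4 members tested passed, against 4.72% of genes. Ly6a was 1.23 higher in effector CD4 T cells (SE 0.212, adjusted p = 0.000342), and 1.15 higher without the keratin-rich droplets. This call also ended without the OX40 library (1.09, adjusted p = 0.0645) and without the library term (1.20, adjusted p = 0.0967).

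The share of cells with a Ly6a UMI was 8.04%, 29.9%, 21.1% and 35.0% of naive CD8 T cells and 24.4%, 52.2%, 42.2% and 55.4% of naive CD4 T cells. With each cell thinned to 750 UMIs the shares were 4.33%, 18.8%, 11.5% and 21.7% of naive CD8 T cells, with 78 shallower cells left out, and 14.8%, 27.3%, 27.9% and 36.6% of naive CD4 T cells, with 42 left out. In NK cells, which had the lowest level, 4 of 62 cells (6.45%) had a Ly6a UMI. Median depth was 1693 UMIs in NK cells, 1614.5 in naive CD8 T cells and 1503.5 in naive CD4 T cells. The share in untreated naive CD8 T cells was near that NK share, and the shares in the other libraries and in naive CD4 T cells were above it.

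**Figure D1:**
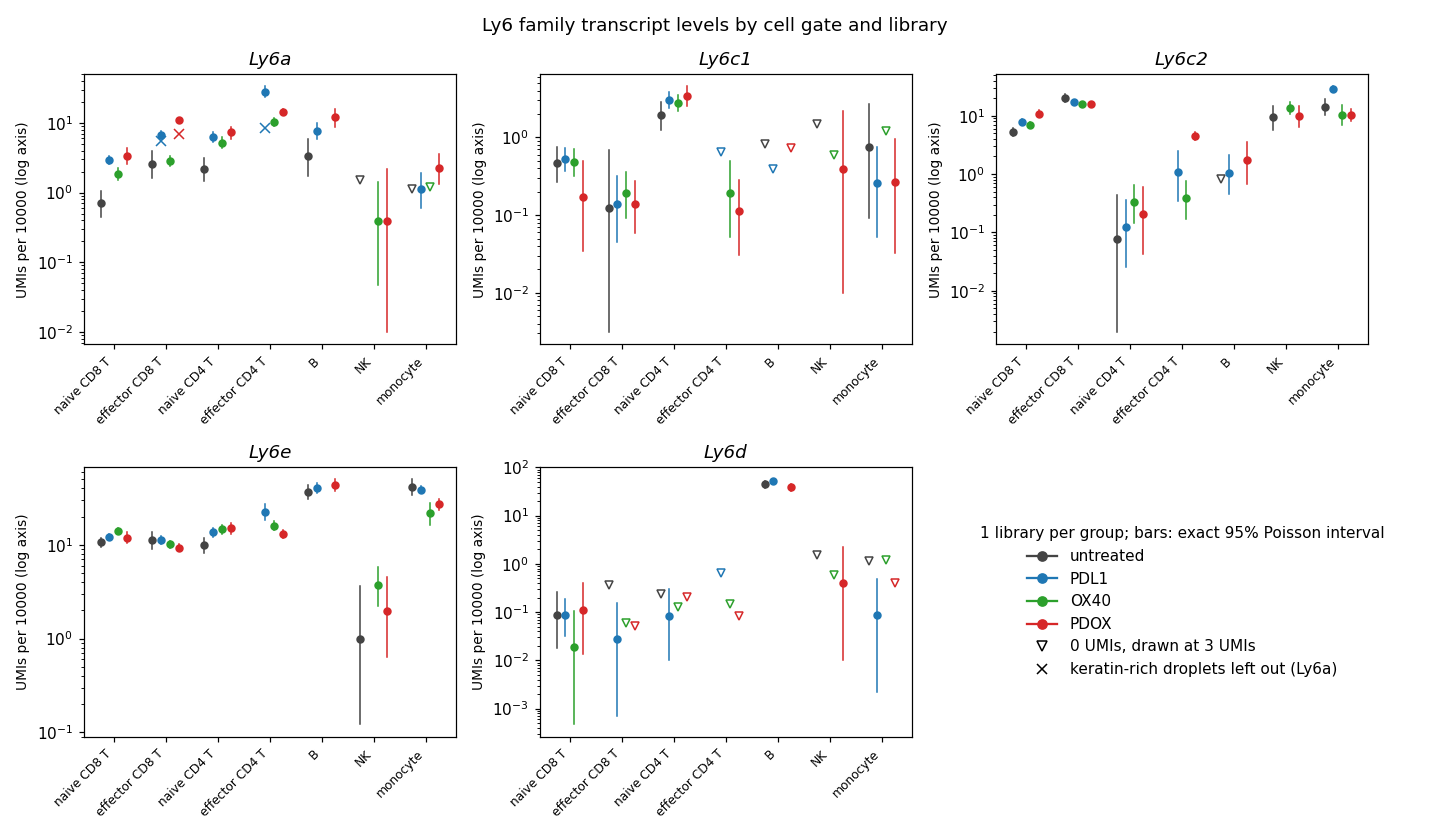
Levels of the 5 Ly6 genes (UMIs per 10000, y axis) by cell type (x axis), with 1 point per library of 10 or more cells, bars for the 95% interval, triangles at 3 counts for 0 UMIs and crosses for Ly6a without keratin-rich droplets, on log axes. Ly6d stands out in B cells, at 44.7, 52.2 and 38.7 in the libraries shown.

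Between treatments, naive cells were compared, because the share of effector cells differed among libraries. Ly6a was at 4.22 times the untreated level in PDL1 naive CD8 T cells (interval 2.76 to 6.73), 2.65 times in OX40 (1.68 to 4.32) and 4.77 times in PDOX (2.92 to 8.02). In naive CD4 T cells the ratios were 2.89 (1.92 to 4.49), 2.38 (1.57 to 3.73) and 3.35 (2.19 to 5.28). Untreated was the lowest library in both lineages. Of the members with 50 or more UMIs, Ly6a was past 2-fold in PDL1 naive CD8 T cells, where 1.8% of genes were, and in OX40, where 2.15% were. In PDOX naive CD8 T cells Ly6a and Ly6c2 were past 2-fold, against 2.16% of genes. For Ly6c2 the ratio was 2.04 (1.65 to 2.51), and it was under 2-fold with a margin of 4 UMIs between the states (1.75) and with all genes kept in the totals (1.99). In naive CD4 T cells Ly6a alone among the members was past it, against 1.62% of genes in PDL1, 2.93% in OX40 and 1.59% in PDOX. A list of interferon-stimulated genes (55 of 59 measured) summed to 89.3, 128, 81.6 and 107 UMIs per 10000 in naive CD8 T cells and to 99.7, 136, 98 and 121 in naive CD4 T cells, with Ms4a4b or Ifi27l2a its most abundant gene. In OX40 its sum was no higher than in untreated, while Ly6a was higher. Its part in the Ly6a ratios was not tested.

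Ly6c1 and Ly6c2, which encode the Ly6C proteins, parted by lineage in naive cells. Ly6c2 in naive CD8 T cells was at 5.32, 7.92, 7.03 and 10.8 UMIs per 10000, and in effector CD8 T cells at 20.4, 16.9, 15.8 and 15.8. The effector level was above the naive level in each library and the ranges of the states did not overlap. Ly6c2 was 1.22 higher in effector CD8 T cells (SE 0.119, adjusted p = 1.28e-11, higher in 4 of 4 libraries). This difference depended on how the states were defined. Under another definition with fewer marker genes, the Ly6c2 difference was 0.063 (adjusted p = 0.730). Ly6a under the same definition was 0.95 higher in effector CD8 T cells (adjusted p = 0.00449).

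Ly6c2 was nearly missing from naive CD4 T cells, at 0.0778, 0.12, 0.335 and 0.206 UMIs per 10000 (15 UMIs in all). In effector CD4 T cells it was at 0, 1.07, 0.387 and 4.49, from 0, 5, 8 and 161 UMIs. The PDOX library held most of these UMIs. Ly6c2 differed by -5.21 in naive CD4 against naive CD8 T cells (SE 0.421, adjusted p = 1.22e-09) and by -2.96 in effector CD4 against effector CD8 T cells (SE 0.285, adjusted p = 7.66e-08), lower in 3 of 3 libraries. Without PDOX the effector value was -5.03 (adjusted p = 1.48e-18). A UMI of Ly6c2 was seen in 29.5%, 34.0%, 40.5% and 38.3% of naive CD8 T cells and in 79.1%, 68.5%, 61.9% and 61.1% of effector CD8 T cells. Thinned to 750 UMIs the shares were 20.2%, 27.8%, 30.6% and 33.0%, and 66.7%, 56.9%, 53.1% and 52.3%, with 78 and 43 cells left out. In naive CD4 T cells the share was 2.77%, at a median depth of 1503.5 UMIs, against 1614.5 in naive and 1919.5 in effector CD8 T cells.

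Ly6c1 ran the other way. Its level in naive CD4 T cells was 1.95, 3.04, 2.81 and 3.44 UMIs per 10000, and in effector CD4 T cells it was 0, 0.193 and 0.112 in PDL1, OX40 and PDOX, with 1 UMI (0.525) in the 7 untreated cells. Naive CD4 T cells were above effector CD4 T cells in each library. Ly6c1 changed by -4.50 in effector CD4 T cells (SE 0.360, adjusted p = 1.71e-12, lower in 3 of 3 libraries). The effector side of that test rests on 0, 4 and 4 UMIs in PDL1, OX40 and PDOX, so few counts set the size of the change. In CD8 T cells Ly6c1 stood at 0.467, 0.531, 0.482 and 0.17 in naive and at 0.124, 0.138, 0.194 and 0.138 in effector cells, lower in effector cells in 4 of 4 libraries, with too few counts for the test. Naive CD4 T cells held 2.71 more Ly6c1 on the log2 scale than naive CD8 T cells (SE 0.232, adjusted p = 3.21e-09, 3 of 3 libraries). Between effector CD4 and effector CD8 T cells the value for Ly6c1 was -0.34 (adjusted p = 0.865).

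A UMI of Ly6c1 was seen in 20.0%, 29.2%, 26.6% and 32.7% of naive CD4 T cells (9.88%, 16.7%, 15.7% and 20.4% when thinned, with 42 cells left out). In effector CD4 T cells the share was 2.37% at a median of 1983 UMIs. None of 127 B cells had one, at a lower median of 1186 UMIs. A floor of 3 counts would be 2.36% of these cells, and it is no limit for the deeper T cells.

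Whether the effector-minus-naive difference itself differed between lineages was tested as an interaction over 3 libraries. Of the 4 members tested 1 passed, against 0.489% of 5320 genes. For Ly6c1 the value was -3.04 (SE 0.597, adjusted p = 0.0169). Ly6c1 met the low-count filter of this fit but not that of the CD8 fit alone, and its CD8 side rests on 37, 26 and 3 naive and 5, 10 and 8 effector UMIs in PDL1, OX40 and PDOX. The call rested on every library: without PDL1 the value was -3.21 (adjusted p = 0.0766), without OX40 -3.37 (adjusted p = 0.519) and without PDOX -2.68 (adjusted p = 0.112). It also ended without the library term (-3.07, adjusted p = 0.0712). For Ly6c2, whose CD4 side had too few counts for its own test, the value was 2.26 (SE 0.618, adjusted p = 0.124), and past the threshold without the keratin-rich droplets (2.38, adjusted p = 0.0147). It was also past the threshold with no filter on low counts (2.24, adjusted p = 6.83e-06) and without the top 5% of cells by UMIs (2.44, adjusted p = 0.00344). It was not past the threshold in DESeq2 (1.81, adjusted p = 1.0), and without OX40 it was 3.49 (adjusted p = 0.0505). Without PDOX it was 0.010 (adjusted p = 1), and without PDL1 2.16 (adjusted p = 0.510). For Ly6a it was 0.025 (adjusted p = 1) and for Ly6e 0.44 (adjusted p = 0.513). These were -0.024 (adjusted p = 0.998) and 0.29 (adjusted p = 0.620) without the keratin-rich droplets.

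As a share of Ly6c1 and Ly6c2 UMIs together, Ly6c1 made up 8.08%, 6.28%, 6.42% and 1.55% in naive CD8 T cells and 0.602%, 0.810%, 1.21% and 0.869% in effector CD8 T cells. The share was lower in effector cells in 4 of 4 libraries, a difference of -4.71 ± 2.87 points (SD), with an exact two-sided permutation p of 0.13, the smallest that 4 libraries allow. In naive CD4 T cells the share was 96.2%, 96.1%, 89.3% and 94.3%. In effector CD4 T cells it was 0% of 5 UMIs in PDL1, 33.3% of 12 in OX40 (interval 9.92 to 65.1) and 2.42% of 165 in PDOX (0.664 to 6.09), and the 1 UMI in untreated was Ly6c1. The CD4 difference was -60.0 ± 46.2 points, lower in 3 of 4 libraries, with the 7 untreated cells counted (exact p = 0.25). Counted by cell, 134 naive CD4 T cells had Ly6c1 alone, 9 had Ly6c2 alone and 5 had both. Of naive CD8 T cells, 42 had Ly6c1 alone, 379 had Ly6c2 alone and 14 had both.

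**Figure D2:**
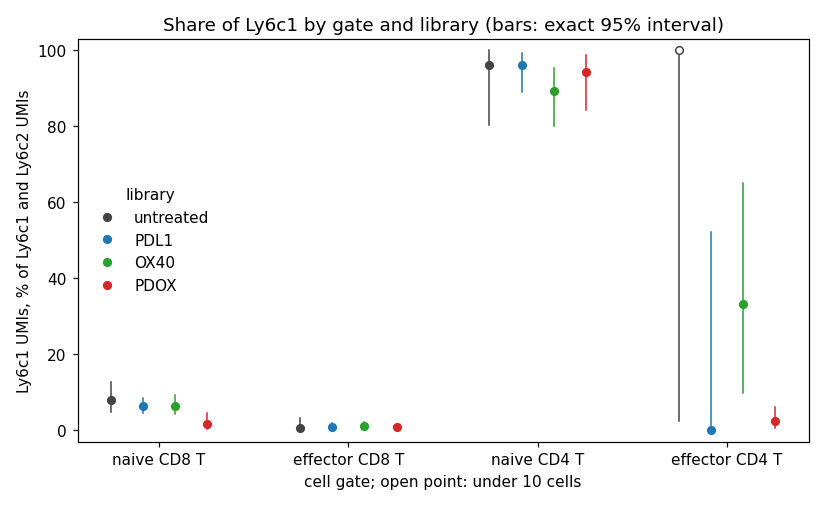
Ly6c1 UMIs as a percent of Ly6c1 and Ly6c2 UMIs together (y axis) in naive and effector T cells of each lineage (x axis), with 1 point per library bars for the 95% interval and an open point for fewer than 10 cells. Naive CD4 T cells lie between 89.3% and 96.2%, and naive CD8 T cells between 1.55% and 8.08%.

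Because these neighbours differed in opposite directions between naive CD4 and naive CD8 T cells, their promoter stretches are shown. RefSeq promoter entries (GRCm38.p6) matched 2 of the 5 members, Ly6c1 and Ly6c2, with 2 entries each. Both lie on the minus strand, and the stretches end at the gene's start, at chr15:75048921-75049087 for Ly6c1 (167 bases) and chr15:75112067-75112221 for Ly6c2 (155 bases). They are written 5′ to 3′, and capitals mark bases left unmatched in the alignment, 65 in Ly6c1 and 53 in Ly6c2. Of 130 aligned bases, 102 were identical (78.5%), 28 differed, and 62 lay opposite gaps.
Ly6c1: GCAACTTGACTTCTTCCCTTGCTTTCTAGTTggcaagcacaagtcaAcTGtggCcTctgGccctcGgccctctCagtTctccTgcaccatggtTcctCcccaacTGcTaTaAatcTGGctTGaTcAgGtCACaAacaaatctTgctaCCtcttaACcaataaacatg
Ly6c2: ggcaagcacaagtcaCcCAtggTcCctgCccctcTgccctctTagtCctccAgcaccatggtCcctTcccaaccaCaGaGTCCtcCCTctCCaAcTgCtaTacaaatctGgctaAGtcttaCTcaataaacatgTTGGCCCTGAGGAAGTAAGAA
The gamma-activated site TTCNNNGAA, searched on both strands, had 0 matches in either stretch. Of 32851 promoter entries, 4.89% held it in their first 167 bases and 4.58% in their first 155. Those stretches were not cut to end at the gene's start, so they may lie elsewhere relative to it. The interferon-response letters GAAANNGAA also had 0 matches, against 4.96% and 4.64% of promoters.

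Ly6e, whose product is known for its part in the entry of viruses into cells, was the most even of the members across T cells. Its level was 10.6, 12.1, 14.2 and 11.9 UMIs per 10000 in naive CD8 T cells and 11.1, 11.4, 10.1 and 9.36 in effector CD8 T cells. The states overlapped, with a change of -0.16 (SE 0.105, adjusted p = 0.326, higher in effector cells in 1 of 4 libraries). Under the definition with fewer marker genes the change was -0.45 (adjusted p = 0.0109). In naive CD4 T cells Ly6e stood at 9.88, 13.5, 14.7 and 15, and in effector CD4 T cells at 22.6, 16.0 and 13.1 in PDL1, OX40 and PDOX, with 28.3 in the 7 untreated cells. The CD4 change was 0.23 (SE 0.150, adjusted p = 0.347, higher in 2 of 3 libraries). It was -0.011 without PDL1 and -0.15 under the definition with fewer marker genes. Effector CD4 T cells held 0.58 more Ly6e than effector CD8 T cells (SE 0.135, adjusted p = 0.00802). That call ended without OX40 (0.64, adjusted p = 0.184) and without the library term (0.62, adjusted p = 0.0641), and the value was 0.38 without the top 5% of cells (adjusted p = 0.0126). The mean effector CD4 level was 17.2 ± 4.87, and 15 ± 1.68 without the keratin-rich droplets, where PDL1 was at 16.0 and the 6 untreated cells at 19.2. Without them the CD4 change was 0.039 (adjusted p = 0.888), the CD8 change -0.18 (adjusted p = 0.243) and the difference between effector lineages 0.43 (adjusted p = 0.00655).

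Ly6d, a marker of developing B cells, was a B cell gene here. Its level in B cells was 44.7, 52.2 and 38.7 UMIs per 10000 in untreated, PDL1 and PDOX, and 23.6 in the 7 OX40 cells, and 92.1% of B cells had a UMI. Its mean level was 0.0430 ± 0.0316 in CD8 T cells and 0.0165 ± 0.0329 in CD4 T cells. Effector CD4 T cells had 0 UMIs of Ly6d in 630994, so that B cells were at least 944-fold higher against a floor of 3 counts over the group.

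Across cell types the members were compared with CD8 T cells over 18 profiles, and 2702 genes were tested, all 5 members among them. In CD4 T cells 3 members passed, against 5.55% of genes, in B cells 4 against 24.9%, in NK cells 2 against 14.7% and in monocytes 2 against 48.1%. The median change of all genes was -0.12 in NK cells and -0.11 in monocytes. In CD4 T cells as a whole Ly6a was 1.65 higher than in CD8 T cells (adjusted p = 0.000196), a call that ended without the library term (1.39, adjusted p = 0.10), and 1.09 higher without untreated (adjusted p = 0.000318). Without the keratin-rich droplets it was 1.23 higher (adjusted p = 1.52e-08). Ly6c1 was 2.36 higher (adjusted p = 7.66e-08) and Ly6c2 changed by -3.55 (adjusted p = 1.19e-06), or by -5.36 without PDOX (adjusted p = 1.25e-20).

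In B cells Ly6e stood at 36.4, 40.4 and 43.6 in untreated, PDL1 and PDOX (30.3 in the 7 OX40 cells), above every T cell value in those libraries. Ly6e was 1.90 higher than in CD8 T cells (SE 0.193, adjusted p = 7.43e-09) and Ly6d 9.64 higher (SE 0.244, adjusted p = 5.26e-22), each in 3 of 3 libraries. Ly6d met the low-count filter of this fit through B cells, having too few counts for the fits among T cells. Its call, counted among the members that passed in B cells, was thereby settled beforehand and adds nothing to the levels. Ly6c2 was at 0, 1.06 and 1.71, with a change of -3.61 (adjusted p = 0.000337). Ly6c1 had 0 UMIs in 165964, so that CD8 T cells were at least 1.83-fold and CD4 T cells at least 8.82-fold higher against the floor of 3 counts over the group. Its adjusted p was 0.0246, and it missed the threshold without untreated (adjusted p = 0.0744), without PDL1 (adjusted p = 0.213), in DESeq2 (adjusted p = 0.0831) and without the library term (adjusted p = 0.0615). Ly6a was at 3.31, 7.70 and 12.0, with a change of 0.93 (adjusted p = 0.0749). Past the threshold it was without the keratin-rich droplets (1.26, adjusted p = 1.22e-05), without the top 5% of cells (1.14, adjusted p = 8.28e-07), without untreated (0.81, adjusted p = 0.0278) and without PDOX (1.08, adjusted p = 0.0278). It was not past it without PDL1 (0.83, adjusted p = 0.331), without OX40 (0.90, adjusted p = 0.118), without the library term (0.98, adjusted p = 0.215), in DESeq2 (0.99, adjusted p = 0.205) or with no filter on low counts (0.57, adjusted p = 0.0936).

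NK cells, of which 62 were found, held little Ly6a, at 0, 0.391 and 0.393 in untreated, OX40 and PDOX. The change against CD8 T cells was -3.41 (adjusted p = 0.0196), and the call ended without OX40 (-4.43, adjusted p = 0.0649), without PDOX (-2.87, adjusted p = 0.0787) and without the library term (-3.64, adjusted p = 0.0507). Without the keratin-rich droplets it was -3.24 (adjusted p = 0.000187). Ly6e was at 1.0, 3.72 and 1.97, with a change of -2.01 (adjusted p = 3.18e-05). Ly6c2 was at 9.50, 13.7 and 9.83, with a change of 0.19 (adjusted p = 0.847). It was -0.18 with no filter on low counts, -0.11 without the top 5% of cells and -0.22 without OX40. The 5 PDL1 cells, which entered no fit, were at 0.955 for Ly6a, 2.87 for Ly6e and 30.6 for Ly6c2 (32 UMIs).

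In monocytes Ly6c2 stood at 14.3, 28.5, 10.4 and 10.3, with a change of 0.64 (adjusted p = 0.188). It was -1.16 without the top 5% of cells (adjusted p = 0.000717) and 0.91 without PDOX (adjusted p = 0.000112). Without PDL1 it was 0.011 (adjusted p = 0.991), and with no filter on low counts 0.39 (adjusted p = 0.112). The 18 classical monocytes had a Ly6c2 level of 41.1 (292 UMIs) and the 50 non-classical ones 3.24 (33 UMIs). Ly6e was at 41.3, 38.9, 21.6 and 27.2, which is 1.61 higher than in CD8 T cells (adjusted p = 1.60e-08). Ly6a was at 0, 1.11, 0 and 2.25, with a change of -1.72 (adjusted p = 0.00510), of -1.44 without the keratin-rich droplets (adjusted p = 6.64e-05) and of -0.48 without the top 5% of cells (adjusted p = 0.264).

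Ly6c1 and Ly6d had few UMIs in NK cells and monocytes and did not pass there. In NK cells the log2 difference was -1.39 for Ly6c1 (adjusted p = 0.506) and 1.85 for Ly6d (adjusted p = 0.524), the latter -2.84 without PDOX. Over left-out libraries Ly6c1 ran from -6.47 to -0.27 there. In monocytes it was -0.083 for Ly6c1 (adjusted p = 0.928) and -0.21 for Ly6d (adjusted p = 0.919). In DESeq2 these were 0.053 and 0.80, and without PDL1 and without OX40 Ly6c1 was 0.29 and 0.16. The lowest values under other settings were -1.36 for Ly6c1 and -4.01 for Ly6d, and Ly6d reached -3.03 with a library left out.

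By mean level over libraries with 10 or more cells (± SD, in UMIs per 10000), Ly6a ran from CD4 T cells (11.1 ± 3.06) over B cells (7.67 ± 4.34) and CD8 T cells (4.05 ± 3.44) to monocytes (0.841 ± 1.08) and NK cells (0.262 ± 0.227). Without the keratin-rich droplets CD4 T cells were at 7.58 ± 3.67 and CD8 T cells at 3.24 ± 2.13, which puts CD4 T cells level with B cells. Each pair of neighbours in this order lay within its spread over libraries, though the fit with the library as a term separated monocytes from CD8 T cells (-1.72, adjusted p = 0.00510). Ly6c2 ran from monocytes (15.9 ± 8.59) over CD8 T cells (11.1 ± 2.58) and NK cells (11.0 ± 2.33) to CD4 T cells (0.951 ± 1.46) and B cells (0.925 ± 0.865). The first 3 did not differ beyond their spread, nor did the last pair. Ly6e ran from B cells (40.1 ± 3.58) and monocytes (32.2 ± 9.40) to CD4 T cells (14.2 ± 1.43), CD8 T cells (11.2 ± 1.12) and NK cells (2.23 ± 1.38). B cells and monocytes overlapped, and CD4 and CD8 T cells, whose ranges met, did not pass the test against each other (0.30, adjusted p = 0.362). Ly6c1 was highest in CD4 T cells (1.71 ± 0.576), with CD8 T cells (0.326 ± 0.120) monocytes (0.318 ± 0.314) and NK cells (0.131 ± 0.227) alike within their spread, and 0 UMIs in B cells.

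Foxp3-positive CD4 T cells, which mark regulatory T cells, numbered 3, 3, 9 and 15. Their Ly6a level was 25.9, 12.6, 12.6 and 11.2 (13.1 in all 30 cells) and their Ly6e level was 22.8 in all. With 10 or more cells in PDOX alone, no test against other CD4 T cells was made.

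Genes of the interferon-stimulated list were compared between states in the same fits, where 16.4% of all genes passed in CD8 and 15.1% in CD4 T cells. In CD8 T cells 37 were tested, 5 were higher in effector cells and 6 lower, with a median change of -0.047 against -0.0088 over all genes. Those called included Oas3 (1.14), Phf11b (0.94) and Isg15 (0.54) upward and Oasl2 (-1.35) and Igtp (-0.83) downward. In CD4 T cells 29 were tested, 2 were higher (Ifi27l2a 0.54, Ms4a4b 0.42) and 3 lower (Ifi47 at -0.88 and Igtp at -0.87 among them), with a median of -0.066 against -0.0012 over all genes.

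The genes with the most similar pattern were ranked by Pearson correlation of log2 levels over 25 profiles of 3988 genes, which share libraries and depth. For Ly6a these were Sf3b2 (r = 0.845), Commd3 (0.839), Mrpl21 (0.832), Edf1 (0.825) and Kdsr (0.824). For Ly6c1 they were Commd8 (0.788), Prdx6 (0.753), Stard5 (0.719), Igfbp4 (0.717) and Ccs (0.712). For Ly6c2 they were Ostf1 (0.775), Myo1f (0.757), Tm6sf1 (0.720), Zyx (0.716) and Tmem256 (0.711). Ly6e lay nearest to Stap1 (0.936), Ctss (0.919), Arhgap17 (0.906), Ifi27l2a (0.898) and Rraga (0.887). Ly6d lay nearest to Ebf1 (0.981), H2-DMb2 (0.976), Ms4a1 (0.973), Cd79a (0.928) and Cd79b (0.916). Of these, Igfbp4, Ebf1, Ms4a1, Cd79a and Cd79b were used to define the cell types. Without the keratin-rich droplets the top gene was Supt20 for Ly6a (0.832), and it was the same gene for the other members.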

How the data were processed

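The authors deposited UMI count matrices, 1 per library, on mm10, and name Seurat 2 for their later steps. Counts were summed per library and cell type and compared in R 4.3.3 with edgeR 4.0.16 (quasi-likelihood fits, TMM scaling, low-count filter, library as a term, adjusted p over all genes tested, threshold 0.05). The 73 genes that define cell types were left out of the tests. DESeq2 1.42.0 served as an alternative. Levels, shares and exact tests used Python 3.11.15, NumPy 2.4.6, SciPy 1.17.1, pandas 2.3.3 and Biopython 1.88. The fits were also run on simulated data, but no outcome of that is given here. The members and gene lists were chosen with earlier results of these data known. Named genes were the members, other Ly6/uPAR genes with 10 or more UMIs, genes from the 3 largest called changes each way among interferon-stimulated genes, and the 5 genes most correlated with each member. Alternatives were no low-count filter, DESeq2 size factors, DESeq2 itself, no library term, all genes kept in the totals, cells over 2900 genes left out, the top 5% of cells left out, other state definitions, cells thinned to 750 UMIs, and each library left out. Leaving out keratin-rich droplets was chosen after seeing the data.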

Additional observations from a re-analysis of the deposited data

Results flagged for a closer look

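In the fit across lineages the effector-minus-naive value of Ly6c1 in CD4 against CD8 T cells was -3.04 on the log2 scale (adjusted p = 0.0169). The CD8 side had too few counts to be tested alone. The call ended without PDL1 (-3.21, adjusted p = 0.0766), without OX40 (-3.37, adjusted p = 0.519), without PDOX (-2.68, adjusted p = 0.112) and without the library term (-3.07, adjusted p = 0.0712). Outside the cell types compared, keratin-rich droplets held Ly6a at 180 UMIs per 10000 in PDL1 (interval 172 to 189, 10 droplets) and at 161 in PDOX (151 to 173, 7 droplets), against 95.1 in untreated (80.6 to 111, 2 droplets). OX40 had 1 such droplet, at 90.1. With the droplets inside the compared cell types counted too, the levels were 123 in untreated (3 droplets), 176 in PDL1 (12), 90.1 in OX40 (1) and 163 in PDOX (8). The intervals cover counting error only, and no difference between libraries was tested.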

How the results depend on the processing

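Each group had 1 library, so the fits rest on 3 or 4 libraries and treatment ratios carry counting error only. Under other settings 295 member changes kept direction and side of the threshold, 11 lost and 6 gained the call, and 10 turned direction. With a library left out these were 118, 10, 3 and 6. The Ly6c1 share difference kept its direction under all 18 alternatives. Treatment ratios stayed within their counting intervals under all 95, but Ly6c2 in PDOX naive CD8 T cells went under 2-fold (1.75 with a margin of 4 UMIs, 1.99 with all genes kept) and Ly6c1 in PDL1 naive CD8 T cells turned from 1.14 to 0.884 with that margin. The test of Foxp3-positive against other CD4 T cells and its alternatives were not run, since 1 library had enough cells. Turned directions, for which the cause was not tested, were the Ly6a interaction (-0.041 with no filter, -0.066 without the top 5% of cells, -0.024 without keratin-rich droplets), Ly6c2 in NK cells (-0.18 with no filter, -0.11 without the top 5%), Ly6c2 in monocytes (-1.16 without the top 5%), Ly6c1 in monocytes (0.053 in DESeq2), Ly6d in monocytes (0.80 in DESeq2, 0.078 without the library term) and Ly6e in effector CD4 T cells (-0.15 with states defined by fewer marker genes). With those states Ly6c2 in effector CD8 T cells was 0.063 and Ly6e -0.45. Over left-out libraries the Ly6a interaction ran from -0.41 to 0.57, Ly6e in effector CD4 T cells from -0.011 to 0.44, Ly6c2 in NK cells from -0.22 to 0.40, Ly6d in NK cells from -2.84 to 2.65 and Ly6c1 in monocytes from -0.40 to 0.29. Called genes numbered 267 for CD4 T cells and 2313 for monocytes with no filter. In DESeq2 they were 330 for effector CD8, 175 for effector CD4, 10 for the interaction, 73 for naive lineages and 140 for effector lineages. Without the library term they were 1 for the interaction, 72, 135 and, for CD4 T cells, 70. The interaction had 57 with all genes kept, 65 without the top 5% and 42 without keratin-rich droplets. Without the top 5% there were 547 for effector CD8, 208 for naive lineages and 379 for CD4 T cells. Thinning gave 266 and 232 for effector CD8 and CD4, and the states with fewer marker genes 264 for CD4. Over left-out libraries the counts ran from 581 (without PDL1) to 1047 (effector CD8), 74 (without OX40) to 643 (effector CD4), 0 to 25 (interaction in edgeR, 0 without OX40; with all libraries 395 at an unadjusted p under 0.05 and 10 in DESeq2), 35 to 99 (naive lineages), 51 to 212 (effector lineages), 55 to 203 (CD4 T cells), 185 to 352 (NK), these lowest without OX40, and 356 to 686 (B) and 795 to 1419 (monocytes), lowest without PDL1.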

Other observations

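Beyond the members, 31 of 39 other genes of the Ly6/uPAR list were measured, 13 of them at 0 UMIs, and 9 had 10 or more UMIs. Psca had 2303 UMIs, 97.2% of them in keratin-rich droplets, and Ly6g6c had 56, 89.3% of them there. Ly6i had 267 UMIs, 129 of them in monocytes, at 5.29 UMIs per 10000. Plaur, which encodes the urokinase receptor, had 186, with 61 in monocytes at 2.50. Ly6k stood at 0.473 in naive CD8 and 0.176 in effector CD8 T cells, a change of -1.24 (adjusted p = 0.00673), and at 0.252 in naive CD4 T cells with 0 UMIs in effector CD4 T cells. Lypd6b was at 0.211 in naive CD8 and 0.199 in naive CD4 T cells, and at 0.0716 in effector CD8 T cells with 0 UMIs in effector CD4 T cells. Lynx1 had 34 UMIs, Ly6g5b 29 and Ly6g 21.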
